A study of Mus musculus with 12 samples.

Results

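Genes of the hypoxia response and of glycolysis were examined in small vessel fragments of the mouse brain. A fixed list of 34 genes was used: 6 regulators of the oxygen response, 13 genes known to be induced by low oxygen and 15 genes of the glycolytic pathway. Probe sets annotated to 1 listed gene only stood for that gene, and where a gene had several, the one with the highest mean over 12 arrays was used. By this rule 31 of the 34 genes had a probe set of their own, out of 18194 genes in all. Bnip3l was covered only by 3 probe sets it shares with a pseudogene, and Gpi1 and Eno1 had none in the annotation used, so these 3 are not analysed here. Egln3, a prolyl hydroxylase that marks HIF proteins for destruction, read 2.53 to 2.57 on the log2 scale in every array, below 3.27, the median of all values, and was not tested. The other 30 genes exceeded that median in 12 of 12 arrays, so no member entered the tests through 1 group alone.

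When oxygen is plentiful, prolyl hydroxylases of the Egln family modify the HIF alpha subunits, and the Vhl ubiquitin ligase then removes them. When oxygen falls, HIF1 alpha (Hif1a) and HIF2 alpha (Epas1) persist, pair with Arnt and bind a short DNA core, the hypoxia response element, near genes for glucose breakdown, vessel growth and mitochondrial control. Glycolytic enzymes are common HIF targets, and brain endothelium is known for high levels of Epas1 and of glycolysis.

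The vessel fragments came from the cerebrum and the cerebellum of 6 mice on a C57BL/6 strain at 2 months of age. There were 3 Notch3 knockout mice and 3 littermate controls labelled wildtype. Each of the 12 Affymetrix mouse arrays held 1 region of 1 mouse, giving 4 groups of 3. No other allele or treatment is named in the labels, and neither how Notch3 was deleted nor how fragments were isolated is stated there. Notch3 is a receptor found on mural cells, the pericytes and smooth muscle that wrap small vessels.

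Values are log2 expression after GCRMA, so a difference of 1 is a 2-fold change, and levels of different genes cannot be compared. The brighter Notch3 probe set read 10.84 to 12.02 in control arrays and 2.48 to 3.58 in knockout arrays, which matches the labels. Endothelial markers were bright in every array: the mean over 9 of them was 13.03 to 13.29. The 3′ probe set of Gapdh exceeded its 5′ probe set by 2.18 to 2.44 and that of Actb by 1.51 to 1.74, a measure of RNA quality. For Gapdh this gap was 2.19 to 2.25 in knockout cerebellar arrays, below all control cerebral arrays (median 2.34); its part in the results was not tested. A gene is said to be called, or to rise or fall, when limma gave an adjusted p under 0.05 (Benjamini-Hochberg over the 11717 genes tested).

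The knockout was compared with the control to see whether vessels without Notch3 changed their oxygen response or glycolysis. No member was called. In cerebral vessels 0 of 30 passed limma's test, where 6.38% of all genes did. In cerebellar vessels 0 of 30 passed, against 4.22% of all genes. When the 2 arrays of each mouse were averaged (3 mice against 3), 0 of 30 passed as well, against 4.03%. Respectively 5, 6 and 6 of 30 had an unadjusted p under 0.05 in limma, beside 2410, 1963 and 2308 of all 11717 genes. The median log2 difference of the 30 members was 0.05 on mouse means, beside 0.00 for all genes. It was 0.09 for the 5 regulators, 0.03 for the 12 hypoxia-induced genes and 0.01 for the 13 glycolytic genes. The cerebral and the cerebellar comparison used different arrays of the same mice. Groups did not overlap for 3 of 30 members in cerebral vessels (24.4% of all genes), 7 in cerebellar vessels (22.1%) and 6 on mouse means (26.3%).

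None of the 5 tested regulators was called between genotypes. Hif1a, the alpha subunit stabilised by low oxygen, differed by 0.09 on mouse means (95% interval -0.15 to 0.33). Epas1, the alpha subunit abundant in endothelium, read 14.92 to 14.95 in control cerebral and 14.96 to 15.02 in knockout cerebral arrays. These groups did not overlap, but the difference of 0.07 (SE 0.05) was not called (adjusted p = 0.525). Vhl, the HIF-removing ligase, differed by 0.09 (interval -0.19 to 0.36) and Egln1, the main oxygen-sensing hydroxylase, by -0.03 (interval -0.15 to 0.09). Hif3a, an alpha subunit that can restrain the others, was dim, at 4.58 to 6.49, and its interval was wide (-0.60 to 1.04).

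Among hypoxia-induced genes Bnip3 came nearest to a call; this and the other members named in this and the next paragraph were picked after their values were seen. Bnip3 encodes a mitochondrial protein that promotes mitophagy. Its control cerebral arrays read 11.67, 11.95 and 11.91 and its knockout cerebral arrays 12.10, 12.37 and 12.27. In cerebellar vessels the controls read 11.74, 11.85 and 11.68 and the knockouts 11.98, 12.29 and 12.16. Every knockout array thus exceeded every control array of its region, as 10.1% of all genes did in cerebral and 10.4% in cerebellar vessels. For cerebral vessels the log2 difference came to 0.40 (SE 0.11, adjusted p = 0.0549 by limma, 3 arrays a group), and for cerebellar ones to 0.38 (SE 0.11, adjusted p = 0.0865). On mouse means it was 0.39 (SE 0.09, adjusted p = 0.0870, limma), a fold of 1.31. Bnip3 had 1 probe set.

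Pdk1, the kinase that keeps pyruvate out of mitochondria, read 10.65 to 10.86 in control cerebral and 10.96 to 11.27 in knockout cerebral arrays, a difference of 0.34 (SE 0.10, adjusted p = 0.0683). In cerebellar vessels its groups did not overlap either, with a difference of 0.20 (adjusted p = 0.351). Of its other 3 probe sets 2 were bright enough to be tested and gave 0.35 and 0.17 in cerebral vessels. Ankrd37, a HIF target of little known function, read 8.33 to 8.62 in control and 8.65 to 8.86 in knockout cerebellar arrays, a difference of 0.34 (SE 0.09, adjusted p = 0.0578), while in cerebral vessels it differed by 0.06. P4ha1, a collagen prolyl hydroxylase, read 10.02 to 10.38 in control and 9.66 to 9.82 in knockout cerebellar arrays, a difference of -0.49 (SE 0.13, adjusted p = 0.0661). It differed by -0.02 in cerebral vessels and by -0.26 on mouse means. Vegfa, the growth factor of endothelium, differed by 0.06 on mouse means (interval -0.38 to 0.50). For Adm, the vasodilator adrenomedullin, that difference was 0.00 (interval -0.32 to 0.32), and for the mTOR inhibitor Ddit4 it was -0.23 (interval -0.63 to 0.18). Bhlhe40 differed by -0.20 (interval -0.41 to 0.01), Ero1l by -0.16 (interval -0.35 to 0.04), Mxi1 by -0.05 (interval -0.17 to 0.08) and P4ha2 by 0.14 (interval -0.44 to 0.72).

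The glycolytic genes Pfkfb3 and Aldoc had the largest differences on mouse means among the 30 members, and neither was called. Pfkfb3, which makes the activator of phosphofructokinase, read 9.10, 9.45 and 8.85 in control cerebral and 9.42, 10.21 and 9.76 in knockout cerebral arrays. Its cerebellar values were 9.13, 9.45 and 8.88 in controls and 9.26, 10.27 and 9.80 in knockouts. The groups overlapped in both regions, and each mouse gave nearly the same value in its 2 regions, within 0.16. The difference on mouse means was 0.64 (SE 0.26, adjusted p = 0.242), a fold of 1.56. Aldoc, an aldolase typical of astrocytes and Purkinje cells, read 12.07 to 12.40 in control and 12.81 to 13.02 in knockout cerebellar arrays. It differed by 0.66 there (SE 0.22, adjusted p = 0.146) and by 0.53 on mouse means (SE 0.15, adjusted p = 0.138). Ldha, which turns pyruvate into lactate, differed by 0.09 on mouse means (interval -0.12 to 0.30) and Pgk1 by 0.08 (interval -0.07 to 0.24).

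**Figure D1:**
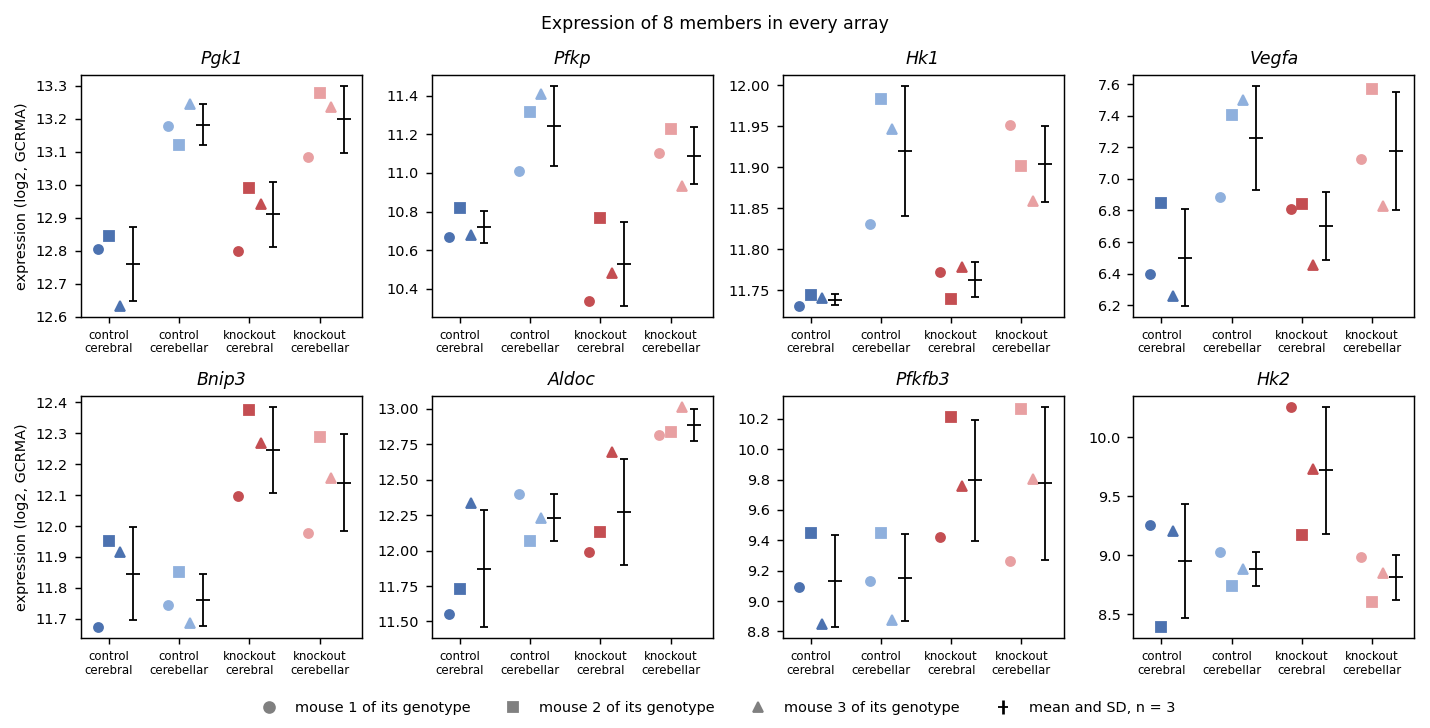
Log2 expression of 8 members in each of the 12 arrays (y axis; the scale differs between panels) by group (x axis), with marker shapes for the mice of a genotype and black bars for the mean and SD of 3. Pgk1, Pfkp and Hk1 are higher in all cerebellar than in all cerebral arrays, Bnip3 is higher in knockout than in control arrays of the same region, and Hk2 has its highest mean in knockout cerebral vessels.

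The count of 0 depended on the settings in the separate regions. A fit with the replicate number as a block is given further below. Under 6 of 9 other settings of the fit the count became 1 to 3 in cerebral vessels (Bnip3, Pdk1 or Aldoc, all higher). Again under 6 of 9, it became 1 to 2 in cerebellar vessels (Ankrd37 or Aldoc higher, P4ha1 lower). It was 3 without knockout cerebral replicate 2 (Bhlhe40 lower, Pdk1 and Hk2 higher), 2 without control cerebellar replicate 3 (Ankrd37 higher, P4ha1 lower) and 1 without knockout cerebellar replicate 1 (Ankrd37). Mural markers moved with genotype: 6 of 9 were called lower in cerebral and 5 of 9 in cerebellar vessels, and their mean level was 12.32 to 12.49 in control and 11.60 to 11.69 in knockout cerebral arrays. Microglia markers were called higher in 4 of 9 cases in cerebral vessels (11.83 to 12.41 in control and 12.66 to 13.26 in knockout arrays). Astrocyte markers were called in 0 of 9 cases; their mean level was 10.56 to 10.79 in control and 10.92 to 11.15 in knockout cerebellar arrays, where Aldoc read higher too. Of 8 markers of cerebellar neurons 3 were called higher in knockout cerebellar vessels, at 6.24 to 6.68 against 5.64 to 5.95 in controls. Handling genes were called lower in 4 of 10 cases in cerebral and 2 of 10 in cerebellar vessels. The part of these cells and of handling in the members' values was not tested. In whole fragments, fewer cells of a type and less RNA per cell cannot be told apart.

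The regions were compared next. A few glycolytic genes and Vegfa were higher in cerebellar than in cerebral vessels, and the share of members called was near that of all genes. Over both genotypes 4 of 30 members were called, all higher in cerebellar vessels, where 12.4% of all genes were called and 7.54% were called higher. They were 3 of the 13 glycolytic genes, Pgk1, Pfkp and Hk1, and 1 of the 12 hypoxia-induced genes, Vegfa, and each was higher in the cerebellar array of 6 of 6 mice. The median difference of the 13 glycolytic genes was 0.16, beside -0.07 for the 12 hypoxia-induced genes, -0.12 for the 5 regulators and -0.01 for all genes.

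Pgk1, phosphoglycerate kinase, makes the first ATP gained in glycolysis. It read 12.80, 12.85 and 12.63 in control cerebral and 13.18, 13.12 and 13.25 in control cerebellar arrays. In knockouts it read 12.80, 12.99 and 12.94 in cerebral and 13.08, 13.28 and 13.23 in cerebellar arrays. All 6 cerebellar arrays lay above all 6 cerebral ones, as 2.91% of all genes did. The difference was 0.35 (SE 0.06, adjusted p = 0.00351, limma), a fold of 1.28, and its other 2 probe sets gave 0.29 and 0.24. Within controls it was 0.42 (SE 0.08, adjusted p = 0.0265) and within knockouts 0.29 (SE 0.08, adjusted p = 0.0639), so that Pgk1 was the 1 member called in controls, where 2.29% of all genes were. The call over both genotypes was kept in all 21 alternatives. The call in controls was lost without any 1 of control cerebral replicates 1 and 3 and control cerebellar replicates 1, 2 and 3, at 0.36 to 0.45 (adjusted p = 0.0600 to 0.0962), and with only the control arrays in the fit (adjusted p = 0.0602).

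Pfkp, the platelet-type subunit of phosphofructokinase, which commits sugar to glycolysis, read 10.67, 10.82 and 10.68 in control cerebral and 11.01, 11.31 and 11.41 in control cerebellar arrays. In knockouts the values were 10.34, 10.77 and 10.48 in cerebral and 11.11, 11.23 and 10.94 in cerebellar arrays. Here too the regions did not overlap. The difference was 0.54 (SE 0.09, adjusted p = 0.00496), a fold of 1.46; it was 0.52 (adjusted p = 0.0770) in controls and 0.56 (adjusted p = 0.0334) in knockouts. It was the 1 member called in knockouts, where 6.8% of all genes were. With the mean of all 3 probe sets of Pfkp, of which the other 2 were too dim to be tested, the difference over both genotypes was 0.20 and no longer called (adjusted p = 0.0668). The call in knockouts was lost without any 1 of knockout cerebral replicates 1 and 3 and knockout cerebellar replicates 1 and 2, at 0.47 to 0.55 (adjusted p = 0.0764 to 0.126), with only the knockout arrays in the fit (adjusted p = 0.0956), with no filter (adjusted p = 0.0652), and with the mean of probe sets, at 0.18 (adjusted p = 0.277). The liver-type subunit Pfkl differed by -0.03 (interval -0.15 to 0.10).

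Hk1, the hexokinase of most tissues and the entry step of glycolysis, read 11.73 to 11.74 in the cerebral and 11.83 to 11.98 in the cerebellar arrays of controls. In knockouts the values were 11.74 to 11.78 (cerebral) and 11.86 to 11.95 (cerebellar). The difference was small but larger than the spread, 0.16 (SE 0.04, adjusted p = 0.0205), a fold of 1.12. Its dimmer probe set gave 0.14, but 0.30 in controls and -0.02 in knockouts, where the brighter gave 0.18 and 0.14. With the mean of both probe sets the call was lost (0.15, adjusted p = 0.239). It was also lost without control cerebral replicate 1 (0.16, adjusted p = 0.0519) or control cerebellar replicate 2 (0.15, adjusted p = 0.0585).

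Vegfa read 6.40, 6.85 and 6.26 in control cerebral and 6.88, 7.40 and 7.50 in control cerebellar arrays. Knockout arrays read 6.81, 6.84 and 6.45 in cerebral and 7.13, 7.57 and 6.83 in cerebellar vessels, so that the regions overlapped in the knockouts. The difference was 0.62 (SE 0.16, adjusted p = 0.0333), a fold of 1.53. This call was the least stable of the 4, since it was lost in 10 of 20 alternatives: with no filter, with quantile normalization, and without any 1 array other than control cerebral replicate 2, control cerebellar replicate 1, knockout cerebral replicate 2 and knockout cerebellar replicate 3 (0.52 to 0.64, adjusted p = 0.0563 to 0.0835). With the mean of its 2 probe sets the difference was 0.31, still called (adjusted p = 0.0429).

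Because both regions came from the same mice, the comparison was also made with the mouse as a block. Arrays of the same mouse deviated together from their group means (r of 0.371 to 0.705). With the block 12 of 30 members were called, against 21.3% of all genes: 9 higher, where 11.6% of genes were, and 3 lower, where 9.68% were. The glycolytic genes made up 8 of the 9 higher ones, as Aldoa (0.23, SE 0.06), Aldoc (0.49, SE 0.13), Tpi1 (0.20, SE 0.05), Gapdh (0.12, SE 0.03) and Pgam1 (0.19, SE 0.04) joined Pgk1, Pfkp and Hk1. These enzymes split the hexose (the aldolases), interconvert and oxidise the triose phosphates (Tpi1, Gapdh) and rearrange phosphoglycerate (Pgam1). Adjusted p-values of the 5 lay between 0.0230 and 0.0437 with the block and between 0.0538 and 0.154 without it. The 3 lower members with the block were Hk2 (-0.48), Vhl (-0.22) and Hif3a (-0.43). Within 1 genotype the block called Vegfa, Pfkp and Pgk1 in controls (7.79% of all genes) and Pfkp, Pgk1, Vhl (lower) and Hk2 (lower) in knockouts (14.7%).

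Per mouse, the cerebellar array was the higher one in 6 of 6 mice for 7 of 13 glycolytic genes (Hk1, Pfkp, Aldoa, Tpi1, Gapdh, Pgk1 and Pgam1), for 1 of 12 hypoxia-induced genes (Vegfa) and for 0 of 5 regulators. Over all genes this share was 13.1%. It was the lower one in all mice for 3 of the 30 members, the regulators Hif3a, Vhl and Egln1, against 12% of all genes. Differences of Gapdh were small and close together, at 0.09 to 0.17 in the 6 mice. Aldoc ranged from -0.11 to 0.85 and was higher in 5 of 6 mice. The last steps of the pathway changed little: Pkm, pyruvate kinase, differed by 0.07 (interval -0.01 to 0.15) and Ldha by 0.02 (interval -0.12 to 0.16).

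**Figure D2:**
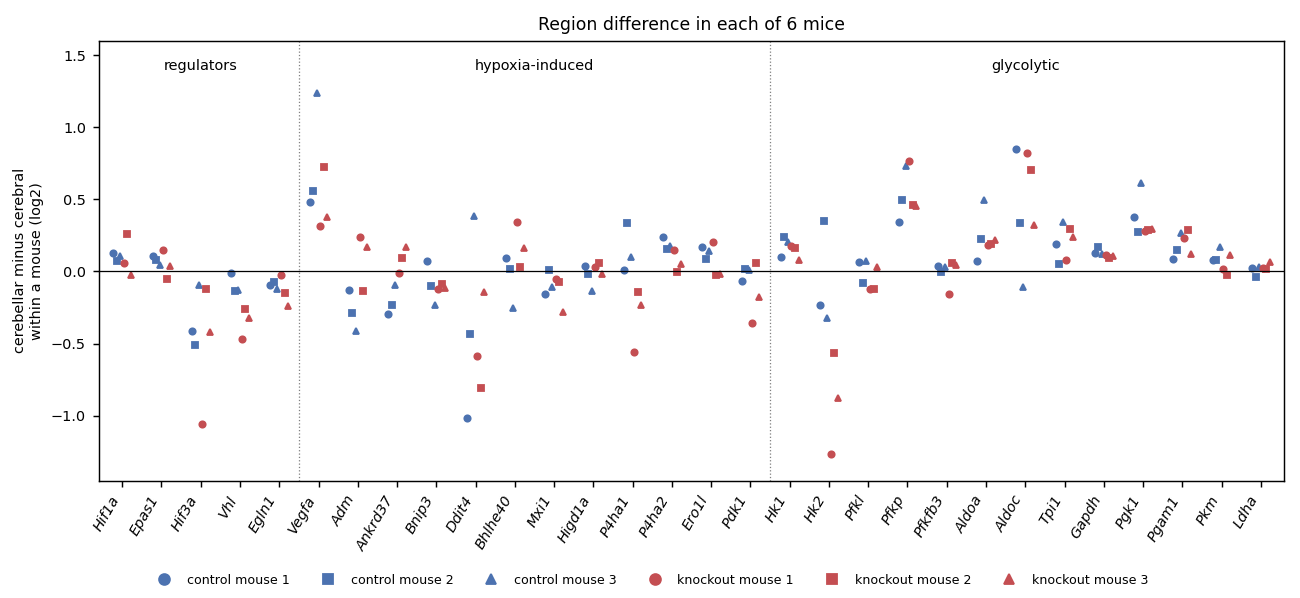
Difference between the cerebellar and the cerebral array of each mouse (y axis, log2) for the 30 tested members (x axis, grouped by role), with 1 symbol for each of the 6 mice, control in blue and knockout in red. Symbols of Vegfa, Hk1, Pfkp, Aldoa, Tpi1, Gapdh, Pgk1 and Pgam1 all lie above 0, and those of Hif3a, Vhl and Egln1 all below.

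Hypoxia-induced genes other than Vegfa were not called between regions, with or without the block. Ddit4 was the most variable of them, at 13.33 to 13.68 in cerebral and 12.52 to 13.78 in cerebellar arrays, a difference of -0.43 (interval -0.85 to -0.01, adjusted p = 0.169). Adm differed by -0.09 (interval -0.34 to 0.15) and the transcriptional repressors Bhlhe40 and Mxi1 by 0.07 (interval -0.11 to 0.24) and -0.11 (interval -0.21 to -0.01). The mitochondrial protein Higd1a was the steadiest, reading 12.54 to 12.80 in all 12 arrays. It differed by -0.01 between regions (interval -0.12 to 0.11) and by 0.05 between genotypes (interval -0.10 to 0.21). P4ha2, a collagen hydroxylase like P4ha1, differed by 0.13 between regions (interval -0.28 to 0.53), and the endoplasmic reticulum oxidase Ero1l, annotated as Ero1a, by 0.09 (interval -0.05 to 0.24). Bnip3, whose genotype groups stood apart, differed by -0.10 between regions. Pfkfb3 differed by 0.00 (interval -0.44 to 0.44).

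The bases before the start sites of some of these genes show the DNA core that HIF binds. The cores ACGTG and GCGTG were searched on both strands in the 250 bases before each start in RefSeq promoters (build GRCm38.p6), which 31 of the 34 listed genes matched. At least 1 core was found for 28 of these 31 genes (90.3%), beside 61.2% of the 9499 tested genes with a promoter and 41.5% of all 27025 genes with one. The list was chosen from known HIF targets, so this share was to some degree built in. A core inside CACGTG, the E-box that Bhlhe40, Mxi1 and other factors bind, counts on each strand. Hk1, called between regions too, had a core at 1 of its 2 start sites and is not shown. Ldha had the most cores together with Bnip3 but differed little between regions. Shown are the start farthest upstream of 3 other members called between regions, of Bnip3 and of Ldha. Each is 5′ to 3′ on the gene's strand, with the cores in capitals.
Pgk1, chrX:106186850-106187099, plus strand, 2 cores: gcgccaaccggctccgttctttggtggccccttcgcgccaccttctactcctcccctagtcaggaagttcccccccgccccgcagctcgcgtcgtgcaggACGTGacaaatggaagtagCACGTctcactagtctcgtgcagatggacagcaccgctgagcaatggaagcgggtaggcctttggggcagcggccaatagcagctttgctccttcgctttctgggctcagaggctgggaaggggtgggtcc
Pfkp, chr13:6648772-6649021, minus strand, 3 cores: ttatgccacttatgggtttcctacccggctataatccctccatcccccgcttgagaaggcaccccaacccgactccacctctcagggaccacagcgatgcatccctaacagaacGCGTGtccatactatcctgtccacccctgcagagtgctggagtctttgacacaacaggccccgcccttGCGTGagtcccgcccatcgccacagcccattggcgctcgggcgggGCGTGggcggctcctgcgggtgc
Vegfa, chr17:46032378-46032627, minus strand, 0 cores: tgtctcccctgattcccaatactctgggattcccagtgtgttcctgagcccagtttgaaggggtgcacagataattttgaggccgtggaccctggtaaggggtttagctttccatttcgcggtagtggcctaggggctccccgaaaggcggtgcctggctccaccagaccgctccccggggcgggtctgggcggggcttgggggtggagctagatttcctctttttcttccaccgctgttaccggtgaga
Bnip3, chr7:138909507-138909756, minus strand, 5 cores: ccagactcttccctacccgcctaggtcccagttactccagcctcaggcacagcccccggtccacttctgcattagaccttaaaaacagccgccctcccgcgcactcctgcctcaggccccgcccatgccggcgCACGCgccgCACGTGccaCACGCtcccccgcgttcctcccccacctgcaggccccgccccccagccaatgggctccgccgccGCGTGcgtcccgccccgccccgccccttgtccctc
Ldha, chr7:46845554-46845803, plus strand, 5 cores: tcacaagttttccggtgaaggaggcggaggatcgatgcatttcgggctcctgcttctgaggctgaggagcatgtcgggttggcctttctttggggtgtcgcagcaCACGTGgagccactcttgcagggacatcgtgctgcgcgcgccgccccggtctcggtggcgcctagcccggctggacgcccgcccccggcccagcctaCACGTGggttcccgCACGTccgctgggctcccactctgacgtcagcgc
The other start site of Vegfa had 2 cores in its window. Whether cores and region differences go together over the members was not tested. A core is a match of letters, and its absence from this window says nothing of HIF binding elsewhere at a gene.

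Hk2 is the hexokinase isoform that low oxygen and insulin are known to induce. It read 9.26, 8.39 and 9.21 in control cerebral and 10.25, 9.17 and 9.73 in knockout cerebral arrays, against 9.03, 8.74 and 8.89 and 8.99, 8.61 and 8.85 in the respective cerebellar arrays. Within knockouts all cerebellar values lay below all cerebral ones, a difference of -0.90 (SE 0.28, adjusted p = 0.0866; adjusted p = 0.0136 with the mouse as a block). Within controls it was -0.07 (SE 0.28). Hk3, a hexokinase of leukocytes, had means of 6.65 in control cerebral, 7.49 in knockout cerebral, 6.40 in control cerebellar and 6.32 in knockout cerebellar arrays. Microglia markers were at 12.66 to 13.26 in knockout cerebral and 11.79 to 11.95 in knockout cerebellar arrays, where 8 of 9 were called lower; their part in the values of Hk2 was not tested. The knockout effect on Hk2 differed between regions by -0.84 (SE 0.39, interval -1.71 to 0.04, adjusted p = 0.999). No member was called in that test, in which limma called 0.0427% of all genes. Only 2 of 30 had an unadjusted p under 0.05, Ankrd37 (0.29) and P4ha1 (-0.46), beside 546 of all 11717 genes.

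**Figure D3:**
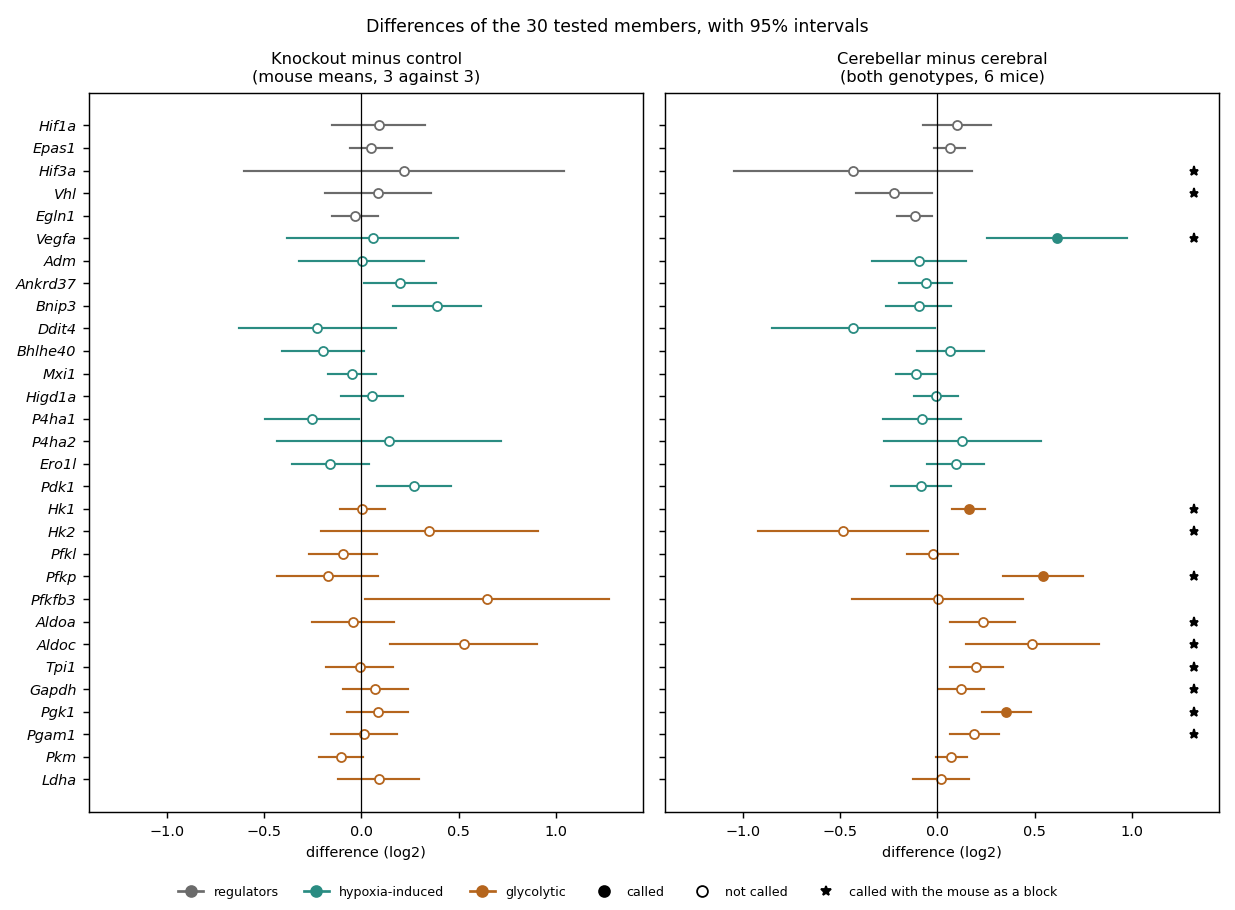
Log2 differences of the 30 tested members (rows, coloured by role) with 95% intervals from limma, for knockout minus control on mouse means (left) and cerebellar minus cerebral over both genotypes (right); filled points are called and stars mark members called with the mouse as a block. No point is filled on the left; on the right Vegfa, Hk1, Pfkp and Pgk1 are filled and lie above 0.

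Markers of several cell types and of tissue handling moved with region in the same arrays. All 10 handling genes, such as Fos (0.89) and Junb (1.58), were called higher in cerebellar vessels, with a mean level of 12.05 to 12.33 in control cerebellar and 10.91 to 11.09 in control cerebral arrays. All 5 choroid plexus markers were higher, led by Otx2 (1.41), at 12.28 to 12.87 against 11.34 to 11.73 in controls. Of 8 tested markers of cerebellar neurons 6 were higher, and their mean level stayed low (5.64 to 5.95 against 5.09 to 5.21 in controls, and up to 6.68 in knockout cerebellar arrays). Of 9 astrocyte markers Aqp4 (1.91), Aldh1l1 (1.55) and S100b (1.22) were higher and Slc1a3 and Slc1a2 lower. Mural markers were higher in 5 of 9 cases and microglia markers lower in 8 of 9. Endothelial markers were called in 0 of 9 cases, with a median difference of -0.02, and oligodendrocyte markers in 0 of 5. Of 7 neuron markers 1 was higher and 1 lower, and the 1 red blood cell marker tested read 3.32 to 3.35 in all arrays, near the median of all values. The part of these cells and of handling in the region differences of the members was not tested.

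A companion list of 54 further genes of oxygen sensing and of glucose and lactate handling was followed, of which 41 were tested. Between genotypes it gave 2 lower in cerebral vessels, 3 higher and 3 lower in cerebellar vessels and 1 lower on mouse means, where 6.38%, 4.22% and 4.03% of all genes were called in either direction. Ndufa4l2, a mitochondrial protein induced by HIF and a known pericyte marker, fell by 1.42 on mouse means (SE 0.15, adjusted p = 0.00665); mural markers fell in the same arrays, and their part was not tested. It was also higher in cerebellar than in cerebral vessels, by 0.94 (SE 0.13, adjusted p = 0.00164). Fam162a, another HIF target, fell by 0.32 in cerebral vessels (adjusted p = 0.0343). In cerebellar vessels the monocarboxylate transporter Slc16a7 fell by 1.13 and the liver glycogen phosphorylase Pygl by 1.07, while Arnt2, a partner of HIF alpha subunits, rose by 0.69. Between regions 9 of 41 were higher in cerebellar vessels and 2 lower, where 12.4% of all genes were called and 7.54% were higher. With the mouse as a block 13 were higher and 4 lower, where 21.3% of all genes were called. The widest differences were in Car12, a carbonic anhydrase (1.09), Ndufa4l2, the GTPase Rragd (0.84) and Hk3 (-0.71). Cited2, a HIF target that blocks HIF activity, was higher in controls (0.65) and knockouts (0.69), and so was Pfkm, the muscle subunit of phosphofructokinase (0.46 and 0.55). Slc2a1, the glucose transporter of brain endothelium, differed by -0.02 between regions and 0.09 between genotypes and was not called in either.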

How the data were processed

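RNA of 12 samples was hybridised to 12 arrays, 1 per region and mouse, after a small-sample amplification, per the labels' protocols. The deposited log2 values per probe set were made by the authors with GCRMA 2.32.0, per the submitters' processing notes, which corrects background and normalises between arrays; they were used as deposited. How many arrays there were, 3 a group, sets the precision. Of 45101 probe sets 34958 named 1 gene, 932 several and 9211 none.

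Genes with at least 3 arrays above 3.27, the median of all values, were tested, 11717 in all, in R 4.3.3 by limma 3.58.1 with eBayes (two-sided; Benjamini-Hochberg adjustment; threshold 0.05). The 4 group means were fitted over 12 arrays with 8 residual degrees of freedom; genotypes were also compared on mouse means with 4. The script was tested on simulated data. Arrays with the same genotype and replicate number were taken as 1 mouse, which the labels do not say in words; the correlation of their deviations was 0.371 to 0.705, so region results are also given with the mouse as a block. Mean marker levels are means over the tested markers of a list. The members and lists were chosen with earlier results of these data known. Of the members called in at least 1 comparison, Pgk1, Pfkp and Vegfa were given with full values and Hk1 with ranges. Full values were also given for Bnip3, Pfkfb3 and Hk2, which were not called. From the companion list up to 4 called genes with the largest change per comparison were given. Alternatives covered the filter, probe sets, scaling, variance model, array weights, arrays in the fit, blocks and leaving out each array or mouse.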

Additional observations from a re-analysis of the deposited data

How the results depend on the processing

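For the 4 members called between regions over both genotypes, 69 of 83 values under the alternatives kept the call and 14 lost it. None changed direction. Pgk1 kept the call in all 21, Pfkp in 20, Hk1 in 18 and Vegfa in 10 of 20. The calls of Pgk1 in controls and of Pfkp in knockouts were kept in 10 and 9 of 16. Over both genotypes the count of 4 members became 10 with array weights and 12 with the mouse as a fixed or as a random replicate block. It was 3 with no filter or quantile normalization, 5 with centred arrays and 6 with trend and robust eBayes. It stayed 4 with other members under the mean of probe sets (Vegfa, Tpi1, Pgk1 and Pgam1) and the 75th percentile filter (Hk1, Pfkp, Pgk1 and Pgam1). When 1 array was left out it was 2 to 7: 2 without control cerebral replicate 1 or control cerebellar replicate 2 and 7 without knockout cerebral replicate 2. In controls the count of 1 became 4 with array weights, 3 with the replicate block, 4 with the random block, 0 with only the arrays compared and 0 to 1 without 1 array. In knockouts the count of 1 became 0 with no filter, with the mean of probe sets or with only the arrays compared, 4 with the replicate block, 2 with eBayes under trend and robust settings, 6 with the random block and 0 to 3 without 1 array. For mice of different genotypes with the same replicate number, deviations from the group means had r of 0.19, 0.18 and 0.0066 in cerebral vessels. In cerebellar vessels r was 0.26, 0.03 and -0.17. Whether mice with the same number share a batch is not stated in the labels and was not tested. With the number as replicate block the genotype counts of 0 became 3, 2 and 2 in cerebral vessels, cerebellar vessels and mouse means. These were Bnip3, Hk2 and Pfkfb3, then Ankrd37 and Bnip3, then Bnip3 and Aldoc, all higher in knockouts. In cerebral vessels the count of 0 also became 1 with the 75th percentile filter, the mean of probe sets, trend and robust eBayes or the random block, 2 with centred arrays and 3 with array weights, and was 0 to 3 without 1 array. In cerebellar vessels it became 2 with the 75th percentile filter or array weights, 1 with the mean of probe sets, quantile normalization, only the arrays compared or the random block, and was 0 to 2 without 1 array. It stayed 0 on mouse means in the other settings and when each mouse was left out, and 0 in every setting for the difference between regions in the knockout effect. Some of these fits hold fewer arrays, and some hold fewer or more genes. The cause of these moves was not tested.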

Other observations

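Probe sets of 1 gene did not always give the same difference. The dimmer probe set of Aldoc gave 0.07 between regions where the brighter gave 0.49, and 0.46 between genotypes on mouse means where the brighter gave 0.53. The second probe set of Epas1 gave -0.17 between genotypes and -0.15 between regions, against 0.05 and 0.06 with the brighter one. The 5 probe sets of Aldoa gave 0.04 to 0.23 between regions, the 3 of Tpi1 0.20 to 0.26 and the 3 of Gapdh 0.12 to 0.20.

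Averaged over the 13 glycolytic genes, each as its deviation from its own mean over 12 arrays, control cerebral arrays lay at -0.18 to -0.11, control cerebellar at -0.02 to 0.09, knockout cerebral at -0.05 to 0.03 and knockout cerebellar at 0.04 to 0.16. The 12 hypoxia-induced genes spanned -0.06 to 0.09 over all arrays. For knockout minus control in cerebral vessels, the 13 glycolytic genes had a median difference of 0.02, with 7 positive and 6 negative. The largest of these differences were those of Hk2 (0.77), Pfkfb3 (0.67) and Aldoc (0.40), none of them called.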
